A study of Mus musculus with 12 samples.

Results

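The genes described here are those of the mouse X chromosome whose lowest annotated position lies below 40 Mb of the mm10 build, the stretch of the X farthest from Xist on the centromeric side. They were taken by position, leaving out Suv39h1, Ddx3x, Kdm6a and Klhl13, which gave 228 genes of 908 X-linked genes and of 22556 genes counted in all. Chromatin-associated RNA, which is enriched in nascent transcripts, was sequenced (ChrRNA-seq) from iXist-ChrX mESCs, female mouse ES cells from a cross of 129S and M. castaneus. In every line a TetOn promoter replaces the endogenous promoter of Xist on the 129S allele, and doxycycline (Dox) at 1.0 to 1.5 µg/mL for 24 h switches Xist on. There were 12 libraries, each line being profiled without Dox and after Dox. WT, with Xist otherwise intact, has 1 library in each state. XistΔm6A/11C, a line with a deletion in the m6A region of Xist, is 1 line with 2 replicates a state, and XistDelA, named for a deletion of the A-repeat of Xist, has 3 clones (C1, 2C2 and C11), each in both states. The data for C11 name the deletion differently from those for C1 and 2C2, so it may be another deletion. The comparisons ask how far genes of this stretch are silenced with each form of Xist.

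As background, Xist RNA coats the chromosome it is transcribed from and recruits silencing factors, so that genes of that chromosome are shut down while the other X stays active. The A-repeat binds the repressor SPEN, and m6A is a methyl mark that a complex guided by RBM15 places on Xist. In a hybrid line, sequence variants tell RNA of the inducible X (Xi) from RNA of the other X (Xa), and silencing appears as a fall in the Xi share, Xi/(Xi+Xa).

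The values are raw counts of read pairs over whole gene spans, introns included. In WT, genes received 27022431 counts in the library without Dox and 27795782 in the library with Dox. For XistΔm6A/11C the sums were 21551628 without and 36007145 with Dox in replicate 1, and 18893447 without and 21079263 with Dox in replicate 2. For XistDelA they were 25742430 and 27489603 in C1, 22949578 and 27300014 in 2C2 and 26081951 and 27469878 in C11. Replicate 1 of XistΔm6A/11C with Dox was thus the deepest library and replicate 2 without Dox the shallowest. Xist itself was at 297 RPM (a gene's counts scaled to the same library total) without Dox and 5514 RPM with Dox in WT. It went from 100 to 3140 RPM and from 85.6 to 4576 RPM in the replicates of XistΔm6A/11C, and from 124 to 1543, from 126 to 1267 and from 158 to 1600 RPM in C1, 2C2 and C11. Each line therefore induced Xist, and the levels with Dox in the XistDelA clones lay below those of every other library with Dox; the part of the Xist level in the values below was not tested. At least 98% of the allelic Xist counts of every library came from 1 genome, which was taken as Xi.

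Markers of mESCs summed to between 1674 and 2540 RPM over 10 genes, with Zfp42 or Esrrb the most abundant. Of these, only Sox2 was at 0 in all 12 libraries, and its span lies inside that of Sox2ot on the same strand, where read pairs that overlap both genes were not counted. Markers of the fibroblast feeders summed to between 5.22 and 18.1 RPM over 10 genes, with Col1a2 or Thy1 on top and Lum at 0 in 10 libraries. Markers of early differentiation summed to between 20.6 and 28.2 RPM in WT and XistDelA and to between 30.3 and 48.1 RPM in XistΔm6A/11C, where Gata4 was the most abundant, and Sox1 was at 0 in all 12 libraries. The labelled cell type thus had its markers, and the part of the differentiation markers in the values of XistΔm6A/11C was not tested.

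Of the 228 genes, 195 had a count in at least 1 library and 33 had none. A mean of at least 10 allelic counts per library was reached by 98 genes, of which 95 had a mean Xi share between 0.1 and 0.9 without Dox and are called informative, and 54 of these had an average of at least 100 allelic counts. For total counts, 97 genes had an average of at least 50. The 3 genes outside that range of shares, which are named here after their values were seen, were C330007P06Rik and Ube2a, an E2 enzyme of the ubiquitin pathway, with a mean Xi share of 1.00 without Dox, and Rhox2e, a homeobox gene of a cluster of near-identical copies, at 0. Since 1 genome held practically all their allelic counts, also with Dox, their Xi shares carry no information on silencing. Ube2a rested on a mean of 49 allelic counts and Rhox2e on 35.2 per library.

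The informative genes lie in 6 blocks separated by more than 1 Mb. The block farthest from Xist, from Nudt11 to Tspan7, held 44 informative genes between 93.0 and 97.4 Mb from the start of Xist. Next came 9 genes from Bcor to Cask, 4 from Maoa to Fundc1, 20 from Chst7 to Gm5124, Wdr44 alone and 17 from Dock11 to Mcts1, the last of them 64.9 to 67.6 Mb from Xist. Allelic information changed along these blocks. Among the 66 genes before Wdr44 with an average of at least 100 counts, a median of 43.6% of counts was assigned to a parental genome and 0 had under 10% assigned. From Wdr44 on, the median of 23 such genes was 4.81%, and 14 of them had under 10% assigned, 5 of which missed the minimum of 10 allelic counts. The median was 38.3% over 338 other X-linked genes, 24 of them under 10%, and 52.2% over autosomal genes. The values of the block nearest to Xist therefore rest on fewer counts than total expression would give, as for Cul4b, a scaffold of ubiquitin ligases, with a mean of 13710 total counts of which 85.8 were allelic.

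**Figure D1:**
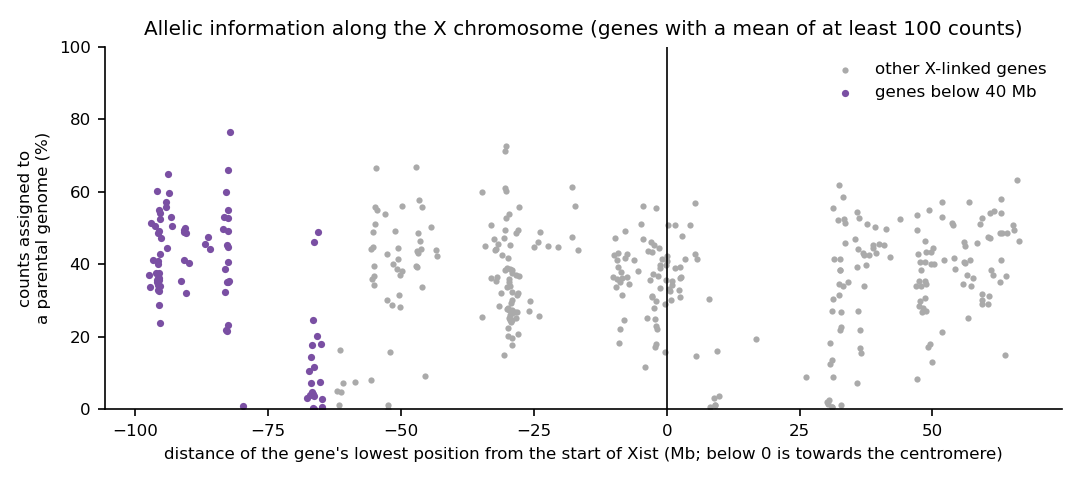
Percent of a gene's counts that were assigned to a parental genome (vertical axis), by distance in Mb from the start of Xist (horizontal axis, below 0 towards the centromere), for X-linked genes with an average of at least 100 counts; each point is a gene. The genes below 40 Mb (purple) have a median of 43.6% before Wdr44, and 14 of the 23 from Wdr44 on are under 10%.

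Without Dox, the summed Xi share of the 95 informative genes was 0.523 in WT (95% Wilson interval 0.519 to 0.526), 0.512 and 0.525 in XistΔm6A/11C, and 0.530, 0.528 and 0.535 in C1, 2C2 and C11. With Dox it was 0.382 in WT (95% Wilson interval 0.378 to 0.386), 0.392 and 0.454 in XistΔm6A/11C and 0.525, 0.532 and 0.522 in C1, 2C2 and C11. The 3 libraries with Dox of WT and XistΔm6A/11C thus lay below all others, while the XistDelA libraries with Dox lay close to their own libraries without Dox, 2C2 slightly above it. Intervals cover only the counting error within 1 library. The reads carry no molecular identifiers, so copies of 1 molecule may be counted more than once and the intervals may be too narrow. As these are bulk samples, silencing in more cells and less Xi RNA per cell cannot be told apart as sources of a lower share.

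Gene by gene, the median change in Xi share with Dox over these genes was -0.149 in WT. It was -0.108 and -0.0889 in XistΔm6A/11C, a mean of -0.0985 ± 0.0135 (SD, n = 2). The XistDelA clones had -0.00382 (C1), -0.000452 (2C2) and -0.00981 (C11), which average -0.00470 ± 0.00474 (SD, n = 3). The pairs of XistΔm6A/11C lay below all 3 clones by more than either spread, and above the single WT pair, whose difference from them has no replicate check. The change was below 0 for 89 of 95 genes in WT, 86 and 77 in XistΔm6A/11C, and 51, 48 and 53 in C1, 2C2 and C11. Over the 220 other informative X-linked genes, the medians were -0.224 in WT and -0.175 and -0.140 in XistΔm6A/11C. In the clones they were -0.0204, -0.0103 and -0.0420. Many genes beyond Xist reach the minimum of allelic counts but are not among these 220, which therefore do not stand for the whole rest of the X. In each of the 6 pairs the genes below 40 Mb thus had the smaller median change, a description without a test, while autosomal medians lay between -0.00149 and 0.000439.

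**Figure D2:**
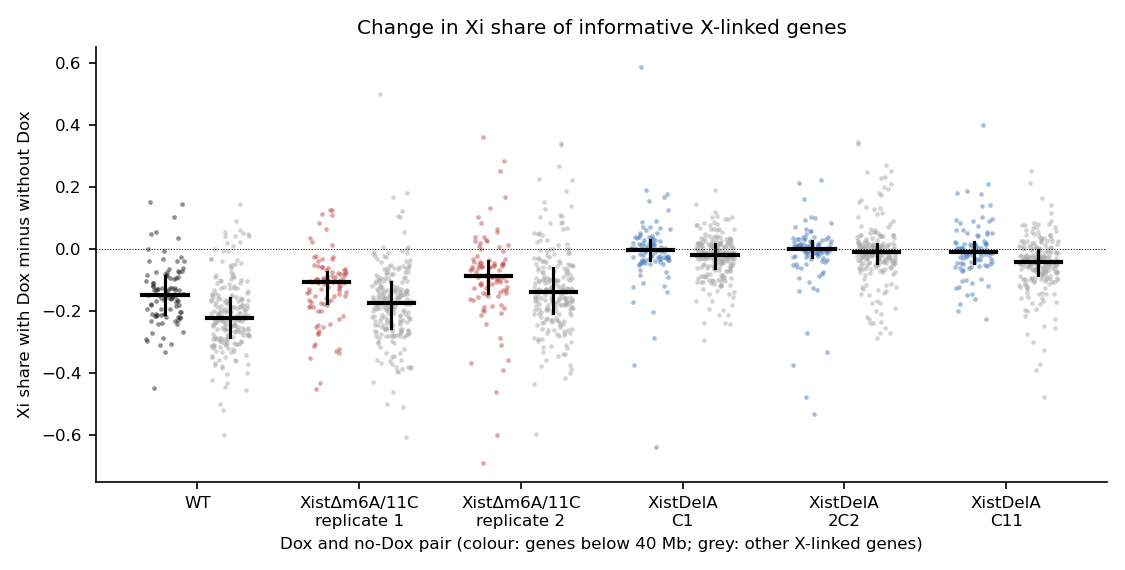
Change in Xi share with Dox (vertical axis) in each of the 6 Dox and no-Dox pairs; points are genes, coloured for the 95 informative genes below 40 Mb and grey for the other 220, with the median as a horizontal bar and the quartiles as a vertical bar. The coloured medians are -0.149 in WT, -0.108 and -0.0889 in XistΔm6A/11C and between -0.00981 and -0.000452 in XistDelA; 1 grey value lies outside the axis.

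A gene counted as less silenced in a line when its change was above that of WT in every pair of the line. This held for 48 of 95 genes in XistΔm6A/11C, beside 33% of all informative genes of the genome and 62.1% of the other informative X-linked genes, and for 77 in XistDelA, beside 25.5% and 83.6%. In 13 genes (13.7%) both XistΔm6A/11C pairs were below WT, against 32.1% of all informative genes and 13.2% of the other informative X-linked genes. Both XistΔm6A/11C pairs were below all 3 XistDelA pairs in 59 of the 95 genes (62.1%), against 12.1% of all informative genes. Among the other informative X-linked genes, 152 of 219 (69.4%) had that order.

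Total counts need no sequence variants. As a percent of all counts of the library, those of the genes below 40 Mb were lower with Dox in all 6 pairs, by little in the clones. The genes made up 0.853% of all counts in WT without Dox and 0.648% with Dox, 0.741% and 0.792% without and 0.556% and 0.669% with Dox in XistΔm6A/11C, and 0.892%, 0.895% and 0.820% without and 0.875%, 0.868% and 0.792% with Dox in the clones. Relative to the autosomal median, the median log2 change of 97 genes was -0.42 in WT, -0.45 and -0.32 in XistΔm6A/11C and -0.05, -0.09 and -0.04 in C1, 2C2 and C11. Over 369 other X-linked genes it was -0.62 in WT, -0.66 and -0.42 in XistΔm6A/11C, and -0.10, -0.16 and -0.16 in the clones. These 369 include many genes beyond Xist that are not among the 220 informative ones, so the 2 sets cover unlike parts of the X. Split by allele, the Xi counts of the informative genes had a median log2 change of -0.93 in WT, -0.92 and -0.57 in XistΔm6A/11C and -0.08, -0.07 and -0.04 in the clones. The Xa counts had -0.05 in WT, -0.16 and -0.08 in XistΔm6A/11C, and -0.000303, -0.07 and -0.02 in the clones. In WT and in both XistΔm6A/11C pairs the Xi counts thus had by far the larger median change, while both medians were near 0 in the clones.

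**Figure D3:**
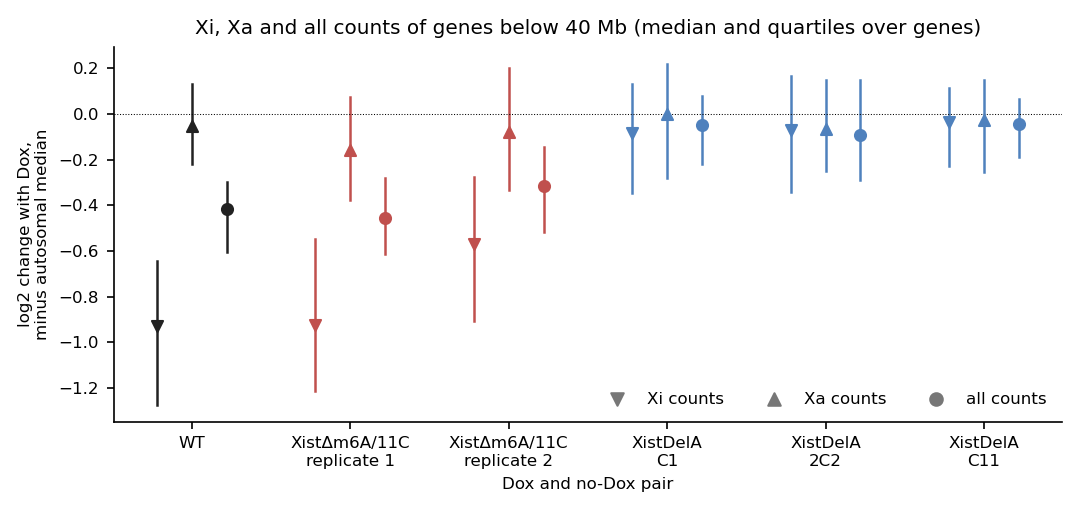
Log2 change with Dox minus the autosomal median (vertical axis) in each pair, for Xi counts and Xa counts of the 95 informative genes below 40 Mb and for all counts of the 97 with an average of at least 50; symbols are medians over genes and bars reach from the lower to the upper quartile. Xi medians are -0.93 in WT, -0.92 and -0.57 in XistΔm6A/11C and -0.08 to -0.04 in XistDelA, and Xa medians lie between -0.16 and -0.000303.

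Each gene's Xi share was then tested in an edgeR quasi-likelihood fit of the allelic counts of all 12 libraries, with Benjamini-Hochberg adjustment over 13549 genes. On simulated data the share of false calls of this fit was above the threshold of 0.05, a limit that holds for every allelic call below. In XistΔm6A/11C, 11 of the 98 genes tested (11.2%) fell and 0 rose with Dox at an adjusted p under 0.05, beside 0.642% of all genes tested that fell. The unadjusted p was under 0.05 for 50 of the 98 (51.0%), against 4.55% of all genes. The median log2 change in the odds of an Xi count was -0.63 over the 98 genes and -0.00225 over all genes. All genes here means those of all chromosomes, not of the X alone. The median share change in this line, as a mean of both pairs, was larger in the other informative X-linked genes, -0.158 against -0.0985. In XistDelA 0 of the 98 genes passed, beside 0% of all genes for a lower share, with 2 (2.04%) at an unadjusted p under 0.05 in the same edgeR fit, against 3.29% of all genes; no other tool was run on the allelic counts. The difference between the lines passed for 2 genes, Clcn5 and Wdr45, with the lower change in XistΔm6A/11C, beside 0.214% of all genes, with 39 (39.8%) at an unadjusted p under 0.05, against 3.79% of all genes. With a block for each clone and replicate number, 22 (22.4%) passed the test of the difference, beside 1% of all genes; the numbers of XistΔm6A/11C are not known to pair its libraries. The count of 11 was 0 without replicate 1 of XistΔm6A/11C, 4 without replicate 2, 6 without 2C2 and 5 without C11, and the count of 2 was 0 without any 1 of these or C1. For WT, with 1 pair, no p is given.

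Of the 14 genes for vesicles, lysosome and cilium, all 14 were informative and 3 fell in XistΔm6A/11C, Clcn5, Wdr45 and Lamp2, with 8 at an unadjusted p under 0.05. Over all genes tested, 0.642% fell and 4.55% had an unadjusted p under 0.05, against 11.2% and 51.0% of the 98 genes tested below 40 Mb. Differences between this list and those that follow were not tested. The median share change of the list was -0.140 in WT, -0.106 and -0.0754 in XistΔm6A/11C and between -0.0157 and 0.00285 in the clones, close to that of all 95 genes. Clcn5, an exchanger of chloride and protons in endosomes, had an Xi share of 0.465 without Dox (95% Wilson interval 0.447 to 0.483) and 0.297 with Dox (95% Wilson interval 0.277 to 0.317) in WT. In XistΔm6A/11C its share went from 0.448 to 0.259 and from 0.459 to 0.303, and in C1, 2C2 and C11 from 0.471 to 0.464, from 0.458 to 0.480 and from 0.480 to 0.446. All 3 libraries with Dox of WT and XistΔm6A/11C were thus below every other library, with no overlap. The log2 odds change was -1.09 (SE 0.109) in XistΔm6A/11C, lower in 2 of 2 pairs (edgeR quasi-likelihood, Benjamini-Hochberg adjusted p = 0.00136). Against XistDelA, where the log2 odds change was -0.04 (SE 0.0869), the difference was -1.06 (SE 0.139), with both XistΔm6A/11C pairs below all 3 clones (edgeR quasi-likelihood, Benjamini-Hochberg adjusted p = 0.0234).

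Wdr45, a β-propeller protein of autophagy, had a share of 0.512 without Dox (95% Wilson interval 0.475 to 0.549) and 0.382 with Dox (95% Wilson interval 0.333 to 0.433) in WT. Its share went from 0.560 to 0.375 and from 0.563 to 0.380 in XistΔm6A/11C, and from 0.540 to 0.556, from 0.525 to 0.536 and from 0.542 to 0.522 in C1, 2C2 and C11. The 3 libraries with Dox of WT and XistΔm6A/11C thus lay together, far below the rest, and WT was no lower than XistΔm6A/11C. The log2 odds change in XistΔm6A/11C was -1.08 (SE 0.113), lower in 2 of 2 pairs (edgeR quasi-likelihood, Benjamini-Hochberg adjusted p = 0.00160). The difference from XistDelA was -1.09 (SE 0.141), with both pairs below all 3 clones (edgeR quasi-likelihood, Benjamini-Hochberg adjusted p = 0.0234). For Clcn5 and Wdr45 the difference no longer passed when any 1 of the 5 pairs was left out, where adjusted p ran from 0.0513 to 0.350 in the same test (edgeR quasi-likelihood, Benjamini-Hochberg) and the log2 difference from -1.18 to -0.93.

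Lamp2, a protein of the lysosomal membrane in the block nearest to Xist, went from 0.492 (95% Wilson interval 0.469 to 0.516) to 0.280 (95% Wilson interval 0.255 to 0.306) in WT, from 0.477 to 0.306 and from 0.463 to 0.371 in XistΔm6A/11C, and from 0.523 to 0.473, 0.503 to 0.490 and 0.469 to 0.472 in C1, 2C2 and C11. Its log2 odds change in XistΔm6A/11C was -0.80 (SE 0.143), lower in 2 of 2 pairs (edgeR quasi-likelihood, Benjamini-Hochberg adjusted p = 0.0415). Rpgr, a regulator at the base of cilia, had smaller values, with share changes of -0.0641 in WT and of -0.0314 and -0.0432 in XistΔm6A/11C, and 0.0127, 0.00286 and 0.0161 in the clones. It did not pass in XistΔm6A/11C (log2 odds change -0.22, SE 0.112, lower in 2 of 2 pairs, edgeR quasi-likelihood with Benjamini-Hochberg adjusted p = 1). Syn1, a protein of synaptic vesicles, had share changes of -0.194 in WT, -0.226 and -0.113 in XistΔm6A/11C and -0.0228, 0.0977 and -0.0188 in the clones, from a mean of 351 allelic counts, and an adjusted p of 0.116 in XistΔm6A/11C (log2 odds change -1.02, SE 0.217, lower in 2 of 2 pairs, edgeR quasi-likelihood with Benjamini-Hochberg adjustment).

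**Figure D4:**
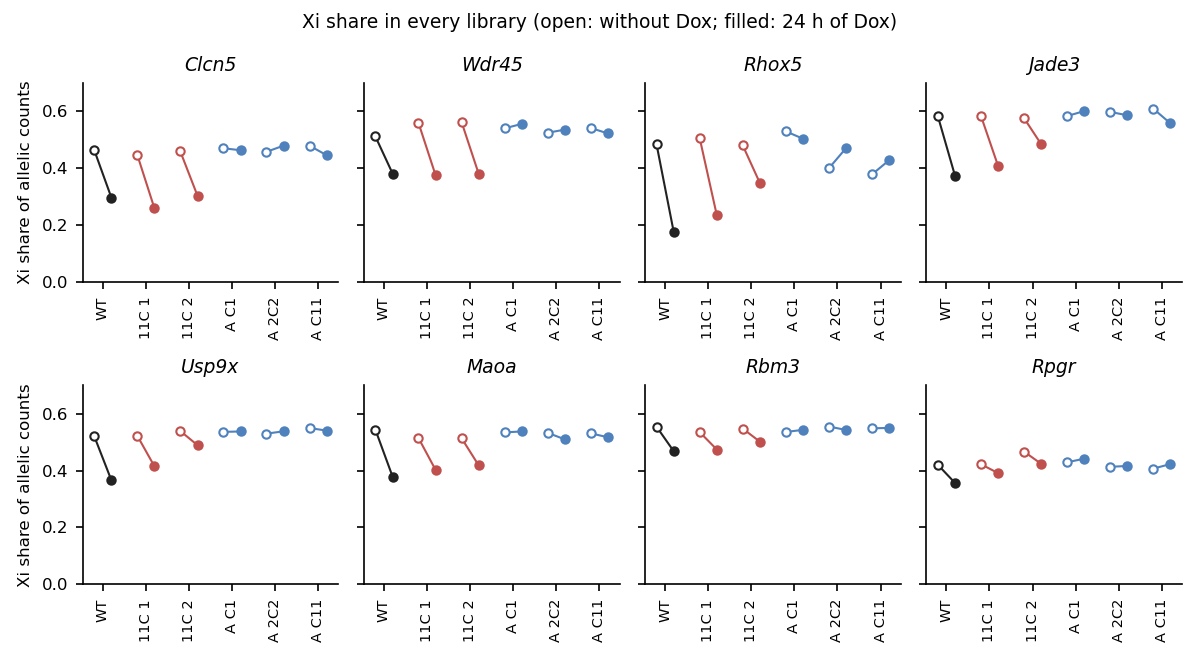
Xi share of allelic counts (vertical axis) of 8 genes in every library, without Dox (open) and with Dox (filled), each line joining 1 pair; 11C is XistΔm6A/11C replicates 1 and 2, and A is XistDelA clones C1, 2C2 and C11. Clcn5 goes from 0.448 to 0.259 and from 0.459 to 0.303 in XistΔm6A/11C, and Rpgr by -0.0314 and -0.0432.

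The promoters of the 2 genes that passed the test of the difference, of the 2 with the lowest and of the 2 with the highest mean share change over WT and XistΔm6A/11C among genes with an average of at least 100 allelic counts are shown so that their base composition and motifs can be compared. They run from 250 bases before to 50 bases after the RefSeq start in GRCm38.p6, 5′ to 3′ on the gene's strand, and capitals mark matches on either strand to the GC box GGGCGG and to CCAAT. Clcn5 is at chrX:7319309-7319608 on the minus strand, Wdr45 at chrX:7722677-7722976 on the plus strand, Rhox5 at chrX:37754358-37754657 on the plus strand, Syn1 at chrX:20920869-20921168 on the minus strand, Ebp at chrX:8193463-8193762 on the minus strand and Efhc2 at chrX:17319892-17320191 on the minus strand. Clcn5 has 2 listed starts, of which 1 is shown. The listed start lies 708 bases inside the counted span of Wdr45 and 573 bases outside that of Efhc2, so that these windows do not cover the starts of the counted spans, while the windows of the other 4 genes do.
Clcn5: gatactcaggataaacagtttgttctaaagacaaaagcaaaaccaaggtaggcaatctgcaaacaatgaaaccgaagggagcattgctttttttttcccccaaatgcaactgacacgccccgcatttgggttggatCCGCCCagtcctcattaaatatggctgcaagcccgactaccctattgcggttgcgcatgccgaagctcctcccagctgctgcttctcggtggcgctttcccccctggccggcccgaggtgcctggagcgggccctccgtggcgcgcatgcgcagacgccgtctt
Wdr45: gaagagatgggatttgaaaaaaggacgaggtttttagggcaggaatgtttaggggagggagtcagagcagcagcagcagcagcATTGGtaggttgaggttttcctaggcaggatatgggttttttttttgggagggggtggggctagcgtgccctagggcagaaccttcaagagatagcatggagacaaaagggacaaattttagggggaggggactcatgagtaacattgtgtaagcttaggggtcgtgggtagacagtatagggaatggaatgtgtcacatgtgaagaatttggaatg
Rhox5: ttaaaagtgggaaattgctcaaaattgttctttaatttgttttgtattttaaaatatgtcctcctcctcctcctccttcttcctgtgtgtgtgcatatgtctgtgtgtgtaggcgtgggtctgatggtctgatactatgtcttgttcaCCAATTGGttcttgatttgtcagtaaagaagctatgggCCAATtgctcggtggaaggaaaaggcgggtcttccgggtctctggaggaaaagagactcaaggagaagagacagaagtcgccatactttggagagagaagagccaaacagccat
Syn1: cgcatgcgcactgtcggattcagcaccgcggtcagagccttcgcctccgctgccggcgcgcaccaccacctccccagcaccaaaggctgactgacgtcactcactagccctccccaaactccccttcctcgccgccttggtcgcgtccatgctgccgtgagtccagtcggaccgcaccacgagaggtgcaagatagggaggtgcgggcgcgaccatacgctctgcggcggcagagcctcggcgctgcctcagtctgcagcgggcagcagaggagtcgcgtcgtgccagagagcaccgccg
Ebp: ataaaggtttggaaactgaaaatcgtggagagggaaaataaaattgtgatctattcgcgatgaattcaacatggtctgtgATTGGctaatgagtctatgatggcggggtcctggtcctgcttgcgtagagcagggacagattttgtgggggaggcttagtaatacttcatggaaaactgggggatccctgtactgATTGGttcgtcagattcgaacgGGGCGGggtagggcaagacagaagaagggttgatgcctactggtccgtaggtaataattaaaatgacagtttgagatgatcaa
Efhc2: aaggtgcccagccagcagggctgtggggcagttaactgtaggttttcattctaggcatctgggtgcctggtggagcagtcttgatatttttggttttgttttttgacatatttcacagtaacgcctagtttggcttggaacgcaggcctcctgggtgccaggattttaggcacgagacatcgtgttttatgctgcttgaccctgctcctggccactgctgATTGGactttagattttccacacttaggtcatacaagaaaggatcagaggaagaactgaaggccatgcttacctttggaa

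These 6 promoters differ widely. CpG dinucleotides numbered 19 in Clcn5, 3 in Wdr45, 5 in Rhox5, 33 in Syn1, 10 in Ebp and 4 in Efhc2, so that the gene with the most CpG and a gene with few both had a low share change. Clcn5 and Ebp hold 1 GC box each, and CCAAT occurs 3 times in Rhox5, 2 times in Ebp and 1 time each in Wdr45 and Efhc2. The motifs TATAAA and CACGTG occur in none of the 6; CACGTG reads the same on both strands, and forward and reverse matches of CCAAT can share bases, as they do in Rhox5. Promoters were matched for 81 of the 95 informative genes, and in 66 of the 81 the window covers the start of the counted span. Of the 81, 58.0% hold GGGCGG, 50.6% CCAAT, 6.17% TATAAA and 8.64% CACGTG, against 59.9%, 51.5%, 8.98% and 10.8% of 167 other informative X-linked genes, 64.8%, 38.7%, 6.59% and 10.3% of 9896 informative genes of the genome and 35.9%, 38.0%, 14.2% and 7.24% of all 27025 genes in the promoter table. The median was 15 CpG, against 14 in the other informative X-linked genes and 21 in all informative genes.

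Of 20 genes listed for transcription and chromatin, 17 lie in the stretch and 12 were informative. In XistΔm6A/11C 3 fell, Jade3, Zfp182 and Bcor, with 9 at an unadjusted p under 0.05, beside 0.642% and 4.55% of all genes. The list's median share change was -0.144 in WT, -0.162 and -0.0999 in XistΔm6A/11C and between -0.0274 and -0.0115 in the clones. Jade3, a PHD finger protein of histone acetyltransferase complexes, went from 0.585 (95% Wilson interval 0.565 to 0.605) to 0.374 (95% Wilson interval 0.351 to 0.399) in WT, from 0.586 to 0.409 and 0.577 to 0.485 in XistΔm6A/11C and from 0.584 to 0.601, 0.598 to 0.587 and 0.610 to 0.558 in C1, 2C2 and C11. The WT library with Dox was thus the lowest, then both of XistΔm6A/11C, and these groups did not overlap with the clones. Its log2 odds change in XistΔm6A/11C was -0.79 (SE 0.139), lower in 2 of 2 pairs (edgeR quasi-likelihood, Benjamini-Hochberg adjusted p = 0.0398). Zfp182, a zinc finger protein, had share changes of -0.126 in WT, -0.0973 and -0.0975 in XistΔm6A/11C and -0.0107, 0.000966 and -0.0228 in the clones. Its log2 odds change of -0.57 (SE 0.0898) was lower in 2 of 2 pairs (edgeR quasi-likelihood, Benjamini-Hochberg adjusted p = 0.0205).

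Bcor, a corepressor found in a Polycomb complex, is named after its value was seen and overlaps another gene, 2900008C10Rik, on the same strand, where shared read pairs were not counted. Its share went from 0.462 (95% Wilson interval 0.425 to 0.499) to 0.371 (95% Wilson interval 0.331 to 0.412) in WT, from 0.462 to 0.296 and from 0.436 to 0.294 in XistΔm6A/11C and from 0.491 to 0.458, 0.451 to 0.510 and 0.502 to 0.503 in the clones. Both XistΔm6A/11C libraries with Dox were thus below the WT library with Dox. The log2 odds change was -0.96 (SE 0.150), lower in 2 of 2 pairs (edgeR quasi-likelihood, Benjamini-Hochberg adjusted p = 0.0186). Med14, the backbone subunit of Mediator, had share changes of -0.127 in WT, -0.147 and -0.0565 in XistΔm6A/11C and 0.0184, 0.0267 and 0.00165 in the clones, and did not pass (log2 odds change -0.60, SE 0.156, edgeR quasi-likelihood with Benjamini-Hochberg adjusted p = 0.327, lower in 2 of 2 pairs). Elk1, a transcription factor of the ETS family, had -0.179 in WT and -0.158 and -0.102 in XistΔm6A/11C, and was among the 3 genes with the lowest mean in XistDelA of those with an average of at least 100 allelic counts, with -0.0449, -0.0279 and -0.0549 in the clones.

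Among genes of the ubiquitin pathway, 9 of 10 listed lie in the stretch, 6 were informative, and Otud5 fell in XistΔm6A/11C while all 6 informative genes had a median change of -0.184 in WT and -0.153 and -0.0790 in XistΔm6A/11C. Of the 7 genes tested, 6 had an unadjusted p under 0.05, against 4.55% of all genes, of which 0.642% fell. Usp9x, a deubiquitinase with a mean of 50960 total and 16340 allelic counts, gives the most precise share of the stretch. It went from 0.522 (95% Wilson interval 0.514 to 0.529) to 0.366 (95% Wilson interval 0.358 to 0.373) in WT, from 0.523 to 0.415 and from 0.539 to 0.489 in XistΔm6A/11C and from 0.536 to 0.538, 0.530 to 0.538 and 0.549 to 0.541 in C1, 2C2 and C11. The replicates of XistΔm6A/11C thus differed, replicate 2 with Dox lying between WT and the clones, and the gene did not pass (log2 odds change -0.46, SE 0.111, lower in 2 of 2 pairs, edgeR quasi-likelihood with Benjamini-Hochberg adjusted p = 0.230). Otud5, another deubiquitinase, went from 0.495 (95% Wilson interval 0.459 to 0.530) to 0.362 (95% Wilson interval 0.326 to 0.398) in WT, from 0.506 to 0.372 and 0.540 to 0.417 in XistΔm6A/11C and from 0.558 to 0.523, 0.544 to 0.512 and 0.548 to 0.506 in C1, 2C2 and C11. It was lower with Dox in all 6 pairs, and had the log2 odds changes of -0.76 (SE 0.122) in XistΔm6A/11C, lower in 2 of 2 pairs, and of -0.21 (SE 0.0968) in XistDelA, lower in 3 of 3, with edgeR quasi-likelihood Benjamini-Hochberg adjusted p = 0.0214 and 1. Uba1, the E1 enzyme of ubiquitin, had share changes of -0.0970 in WT and -0.102 and -0.0483 in XistΔm6A/11C, and Usp11, a deubiquitinase, had -0.212 in WT and -0.173 and -0.0455; neither passed.

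The 18 genes listed for signalling and cytoskeleton held 15 informative genes. Of these, Cask, Shroom4 and Tspan7 fell in XistΔm6A/11C, with 8 at an unadjusted p under 0.05, beside 0.642% and 4.55% of all genes. Their median share change was -0.169 in WT, -0.119 and -0.0889 in XistΔm6A/11C and between -0.0234 and 0 in the clones. Cask, a scaffold protein of cell junctions and synapses, went from 0.470 (95% Wilson interval 0.456 to 0.484) to 0.359 (95% Wilson interval 0.345 to 0.374) in WT, from 0.471 to 0.373 and 0.466 to 0.381 in XistΔm6A/11C and from 0.506 to 0.475, 0.476 to 0.492 and 0.484 to 0.474 in the clones. WT and both XistΔm6A/11C libraries with Dox thus lay close together and below all other libraries. Its log2 odds change in XistΔm6A/11C was -0.54 (SE 0.0710), lower in 2 of 2 pairs (edgeR quasi-likelihood, Benjamini-Hochberg adjusted p = 0.00593). Shroom4, an actin-binding protein, had share changes of -0.130 in WT, -0.138 and -0.0902 in XistΔm6A/11C and -0.00382, -0.00112 and -0.0473 in the clones. Tspan7, a tetraspanin of the cell surface, had -0.169, then -0.104 and -0.117, then -0.0185, -0.00848 and -0.0269. The log2 odds changes of -0.67 (SE 0.0955) for Shroom4 and -0.64 (SE 0.103) for Tspan7 were lower in 2 of 2 pairs (edgeR quasi-likelihood, Benjamini-Hochberg adjusted p = 0.0113 and 0.0212). Araf, a kinase of the RAF family, had -0.133 in WT and -0.0796 and -0.0889 in XistΔm6A/11C, and was among the 3 highest in XistDelA of genes averaging at least 100 allelic counts, with -0.00374, 0.0135 and 0.0605.

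All 19 listed genes for mitochondria and metabolism lie in the stretch and 13 were informative. Maoa passed in XistΔm6A/11C, with 3 genes at an unadjusted p under 0.05, beside 0.642% and 4.55% of all genes. Whether this list differs from the others was not tested. The median change of this list was -0.111 in WT, -0.0676 and -0.0695 in XistΔm6A/11C and between -0.0138 and 0.0289 in the clones. Maoa, a mitochondrial enzyme that oxidises monoamines, went from 0.544 (95% Wilson interval 0.523 to 0.564) to 0.379 (95% Wilson interval 0.354 to 0.404) in WT, from 0.515 to 0.402 and 0.514 to 0.418 in XistΔm6A/11C and from 0.534 to 0.538, 0.533 to 0.510 and 0.531 to 0.517 in the clones. The 3 low libraries were again those with Dox of WT and XistΔm6A/11C. Its log2 odds change in XistΔm6A/11C was -0.61 (SE 0.0762), lower in 2 of 2 pairs (edgeR quasi-likelihood, Benjamini-Hochberg adjusted p = 0.00489). Slc25a5, the ADP/ATP carrier of mitochondria, which has processed copies elsewhere in the genome so that its counts are uncertain, had share changes of 0.0340 in WT and -0.0377 and -0.215 in XistΔm6A/11C. The replicates thus disagree for Slc25a5, whose second pair rested on 153 and 92 allelic counts. Ebp, a sterol isomerase of cholesterol synthesis, had -0.0955 in WT, -0.0217 and 0.0386 in XistΔm6A/11C and -0.139, -0.0122 and 0.0491 in the clones, from a mean of 157 allelic counts. Neither Slc25a5 nor Ebp passed.

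For RNA processing and translation the median share changes were -0.0782 in WT, -0.0928 and -0.0603 in XistΔm6A/11C and between -0.0102 and 0.00658 in the clones, over 10 informative of 13 genes. In XistΔm6A/11C 0 of the 10 genes tested passed in the edgeR fit, with 5 at an unadjusted p under 0.05, beside 0.642% and 4.55% of all genes. Whether the list differs from the others was not tested. Rbm3, a cold-inducible RNA-binding protein, went from 0.554 (95% Wilson interval 0.536 to 0.572) to 0.468 (95% Wilson interval 0.449 to 0.487) in WT, from 0.535 to 0.474 and 0.548 to 0.501 in XistΔm6A/11C and from 0.536 to 0.543, 0.555 to 0.543 and 0.549 to 0.550 in the clones. Its 3 lowest libraries were again those with Dox of WT and XistΔm6A/11C, and the change did not pass (log2 odds change -0.31, SE 0.0779, lower in 2 of 2 pairs, edgeR quasi-likelihood with Benjamini-Hochberg adjusted p = 0.265). Nkap, a nuclear protein that takes part in splicing, had share changes of -0.0700 in WT, -0.0639 and -0.0744 in XistΔm6A/11C and 0.00375, 0.0156 and 0.00775 in the clones. Rbm10, a splicing regulator, had -0.161 in WT, -0.0818 and -0.106 in XistΔm6A/11C and 0.0499, 0.0137 and -0.0188 in the clones. Wdr13 was among the 3 lowest in XistDelA of genes averaging at least 100 allelic counts, with -0.172, -0.0822 and 0.0202 in C1, 2C2 and C11, from a mean of 120 allelic counts. The clones thus differ in sign for Wdr13.

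Ranked by the mean over WT and both XistΔm6A/11C pairs among the 54 genes with an average of at least 100 allelic counts, the 6 lowest were Rhox5, Syn1, Slc9a7, Clcn5, A230072C01Rik and Wdr45 and the 6 highest Efhc2, Ebp, Rpgr, Rbm3, Nkap and Slc25a5. Rhox5, a homeobox gene of a cluster of related genes, had the lowest mean, -0.238. Its share went from 0.484 (95% Wilson interval 0.399 to 0.571) to 0.175 (95% Wilson interval 0.107 to 0.273) in WT, from 0.507 to 0.234 and 0.481 to 0.348 in XistΔm6A/11C, and from 0.530 to 0.504, 0.40 to 0.471 and 0.378 to 0.429 in C1, 2C2 and C11. The shares of the clones were apart already without Dox, but they rested on 217, 85 and 74 allelic counts there, so that counting error is large. With a mean of 153 allelic counts the gene did not pass in XistΔm6A/11C (log2 odds change -1.33, SE 0.324, lower in 2 of 2 pairs, edgeR quasi-likelihood with Benjamini-Hochberg adjusted p = 0.241). Slc9a7, a sodium and proton exchanger of the Golgi, had changes of -0.224 in WT, -0.201 and -0.101 in XistΔm6A/11C and -0.0250, -0.00890 and -0.0565 in the clones, and A230072C01Rik had -0.220, then -0.165 and -0.117, then -0.0378, 0.0274 and -0.00855. At the other end, Efhc2, an EF-hand protein of axonemal microtubules, started from a high Xi share, 0.888 in WT without Dox (95% Wilson interval 0.854 to 0.916) and between 0.831 and 0.916 in the other libraries without Dox. Its changes were -0.0401 in WT, -0.0577 and 0.0197 in XistΔm6A/11C and -0.0248, 0.0164 and 0.0541 in the clones. Fundc1, a receptor for mitophagy and 1 of the 3 highest in XistDelA beside Araf and Rhox5, had -0.0762 in WT, -0.153 and -0.0530 in XistΔm6A/11C and 0.0427, -0.00423 and 0.0412 in the clones.

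For total counts, 0 of 118 genes tested passed in XistΔm6A/11C in the edgeR quasi-likelihood test, beside 0% of all genes, with 8 (6.78%) at an unadjusted p under 0.05, against 1.14% of all genes, and 0 passing in DESeq2. In the difference between the lines 0 of 128 passed in edgeR, beside 0% of all genes, with 10 (7.81%) at an unadjusted p under 0.05, against 1.48% of all genes; with the block, 5 were lower (3.91%), beside 0.565% of all genes. In XistDelA 0 of 123 passed, beside 0.0202% of all genes, with 19 (15.4%) at an unadjusted p under 0.05, close to the 14.5% of all genes. In DESeq2 Maoa and Pgrmc1 were lower (1.09% of 183 genes) and Slc25a43 was higher (0.546%), beside 1.04% and 0.782% of all genes. The libraries of XistDelA pair by clone. With the clone as a block, 27 of 126 genes (21.4%) were lower and 12 (9.52%) higher at an adjusted p under 0.05, where 14.5% of all genes were lower and 14.5% higher, so that the lower share was above and the higher share below the background, which was not tested. With the block, Maoa had a log2 change of -0.45 (SE 0.0471), Wdr45 -0.45 (SE 0.0563), Pgrmc1, a heme-binding membrane protein, -0.42 (SE 0.0583), Slc25a43, of the mitochondrial carrier family, 0.68 (SE 0.0946), Shroom4 0.26 (SE 0.0477) and Araf 0.25 (SE 0.0533), each in the same direction in 3 of 3 clones. These are the 3 in each direction with the smallest p, chosen after the values were seen.

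Maoa was at 199, 208 and 211 RPM without Dox and at 148, 156 and 155 RPM with Dox in C1, 2C2 and C11, against 189 and 113 RPM in WT and 151 and 285 without and 99.7 and 209 with Dox in XistΔm6A/11C. Slc25a43 was at 9.56, 9.50 and 9.55 RPM without and 16.3, 17.0 and 13.5 RPM with Dox in the clones, against 10.3 and 10.2 RPM in WT and 14.3 and 8.47 without and 11.7 and 6.17 with Dox in XistΔm6A/11C. Within XistDelA the libraries without and with Dox thus did not overlap for either gene. The lower total of Maoa and Wdr45 in the clones came with mean share changes of -0.0111 ± 0.0134 and 0.00238 ± 0.0192 (SD, n = 3), which lie within the spread of the clones around 0. Wdr45 was at 74.1, 91.8 and 80.2 RPM without and 51.0, 74.0 and 59.5 RPM with Dox in C1, 2C2 and C11, and at 74.2 and 38.3 RPM in WT.

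Along the stretch, the median share change in WT was -0.131 in the block farthest from Xist, -0.153 from Bcor to Cask, -0.0937 from Maoa to Fundc1, -0.172 from Chst7 to Gm5124 and -0.216 from Dock11 to Mcts1. In XistΔm6A/11C it was -0.0975 and -0.0560 in the farthest block and -0.140 and -0.133 in the nearest, and in the clones it lay between -0.0122 and 0.00278 in the farthest and between -0.0259 and 0.00272 in the nearest. In WT and both XistΔm6A/11C pairs the nearest block thus had a lower median than the farthest. Of the blocks between, XistΔm6A/11C had -0.147 and -0.085 from Bcor to Cask and -0.0853 and -0.0746 from Maoa to Fundc1. From Chst7 to Gm5124 it had -0.137 and -0.0906. Wdr44, alone in its block and with a mean of 55.1 allelic counts, had -0.0264 in WT and 0.112 and -0.00718 in XistΔm6A/11C. In replicate 1 the nearest block was therefore not the lowest. Across the 95 genes, Spearman's rho between distance from Xist and share change was 0.203 in WT, 0.154 and 0.187 in XistΔm6A/11C and 0.125, 0.0640 and -0.110 in C1, 2C2 and C11, values over genes that share the same libraries and blocks. Among the 54 genes with an average of at least 100 allelic counts it was 0.302 in WT, 0.0740 and 0.119 in XistΔm6A/11C and 0.0570, -0.137 and -0.160 in the clones. With gene length it was, over the 95 genes, -0.128 in WT, -0.0980 and -0.0180 in XistΔm6A/11C and between -0.179 and 0.0430 in the clones. With the CpG count of 81 promoters it was -0.0510 in WT, -0.0190 and 0.0420 in XistΔm6A/11C and between -0.0350 and 0.174 in the clones. Between the XistΔm6A/11C replicates the changes of the 95 genes had a rho of 0.0900, and of 0.275 among those 54 genes.

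**Figure D5:**
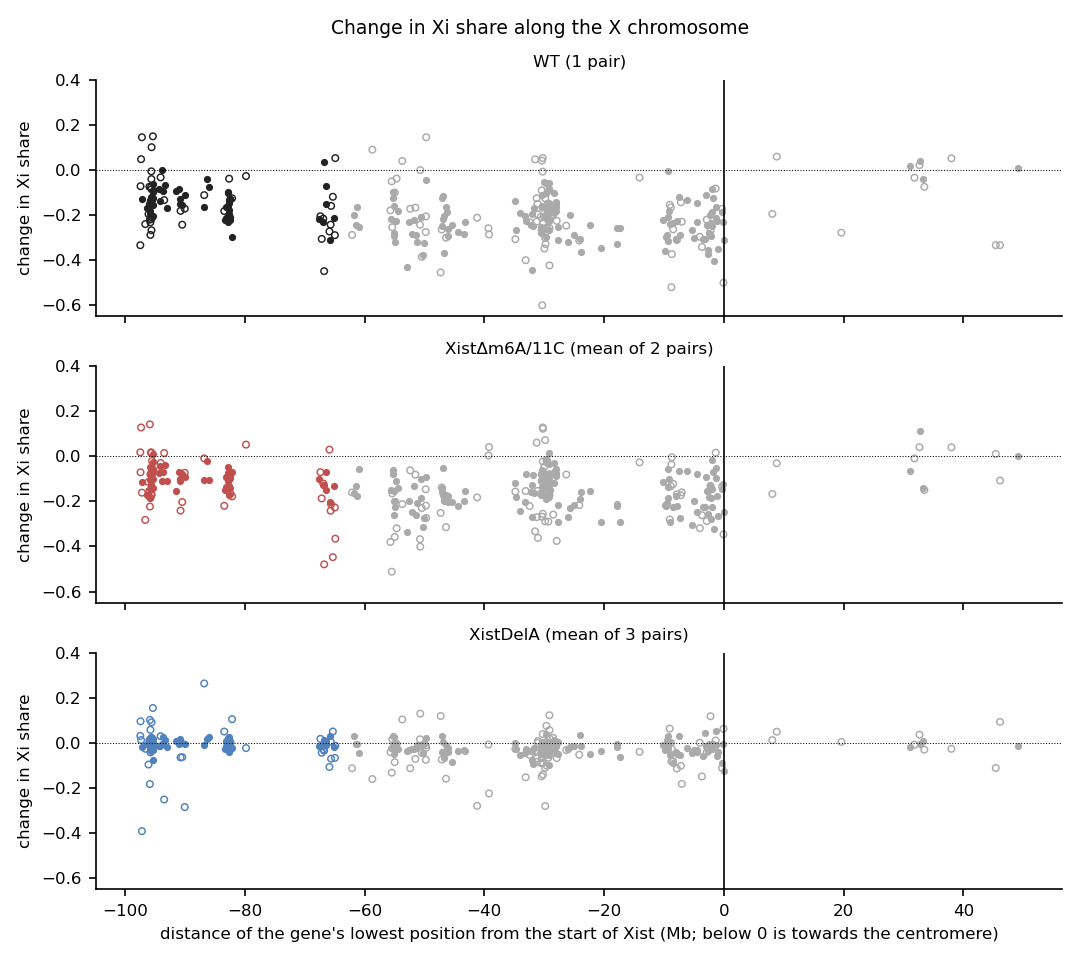
Change in Xi share with Dox (vertical axis) by distance in Mb from the start of Xist (horizontal axis, below 0 towards the centromere) for informative X-linked genes, in WT, in the mean of the 2 XistΔm6A/11C pairs and in the mean of the 3 XistDelA pairs; filled points have an average of at least 100 allelic counts and open points fewer, coloured below 40 Mb and grey elsewhere. Block medians in WT are -0.131 in the farthest and -0.216 in the nearest coloured block, with -0.0937 from Maoa to Fundc1 between them.

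On either side of 40 Mb, the last informative genes inside were Cul4b and Mcts1, a factor of translation reinitiation, and the first outside Gria3, a subunit of AMPA receptors, and Thoc2, of the mRNA export machinery. Their share changes in WT were -0.289, 0.0533, -0.288 and -0.20. Those in XistΔm6A/11C were -0.253 and -0.201 for Cul4b, -0.131 and -0.600 for Mcts1, -0.383 and 0.0629 for Gria3 and -0.191 and -0.132 for Thoc2. Mcts1 rested on a mean of 30.3 allelic counts, and on 5 and 1 in the second XistΔm6A/11C pair, so that its values are dominated by counting error. Genes on both sides had under 10% of counts assigned to a genome, 0.625% for Cul4b, 2.78% for Mcts1, 4.87% for Gria3 and 1.08% for Thoc2.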

How the data were processed

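The values are counts of read pairs per gene as deposited by the authors, not normalized, which featureCounts (version 1.5.2) made over stranded transcript spans of mm10, once for the whole library and once for each parental genome. Pairs falling on 2 genes of the same strand were left uncounted. The submitters' processing notes also name Bowtie2 (version 2.3.2), STAR (version 2.4.2a), SAMtools, bedtools and edgeR.

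From the counts, Xi shares, their changes within each line, clone or replicate pair, and log2 changes of RPM (pseudocount 0.5) were computed in Python 3.11.15 (pandas 2.3.3, scipy 1.17.1); figures were drawn with matplotlib 3.10.9. Genes were tested by quasi-likelihood fits of edgeR (version 4.0.16) in R 4.3.3 with Benjamini-Hochberg adjustment over all genes and a threshold of 0.05, and the fits were tested on simulated data, where the share of false calls was above the threshold in the allelic fit. The allelic fit took both allelic counts of all 12 libraries for genes with an average of at least 10 allelic counts, with a term for each library. Total counts were fitted with TMM and filterByExpr (minimum count 10), separately for XistΔm6A/11C and XistDelA, and jointly for their difference. Alternatives covered DESeq2 (version 1.42.0), size factors, count filters, a replicate block and leaving out each pair. Promoters were taken from RefSeq (GRCm38.p6).

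The clone names pair the XistDelA libraries, which come from the same cells; the deviations of libraries of 1 clone from their group means had correlations of 0.819 (C1), 0.610 (2C2) and 0.720 (C11). The data for C11 name the deletion differently from those for C1 and 2C2, so C11 may carry another deletion; the 3 are grouped as labelled, and C11 was also left out. The labels do not say that the replicates of XistΔm6A/11C are separate cultures, while the study's methods speak of biological replicates; p-values there measure only the spread between these samples.

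The genes named are Xist; of informative genes with an average of at least 100 allelic counts, the 6 lowest and 6 highest by mean share change over WT and XistΔm6A/11C and the 3 lowest and 3 highest over XistDelA; the 3 with most allelic counts of each of 6 role lists, in which a gene can occur more than once; up to 3 each way in each test of total counts; the 3 with most total counts; and 2 on either side of 40 Mb. Genes whose values are given outside this rule are said to be; markers and genes at the ends of blocks are named as such. Zfp41, Gm14325, Zfp449 and Klhl15 were listed but lie outside the stretch. The genes and lists were chosen with earlier results of these data known.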

Additional observations from a re-analysis of the deposited data

Results flagged for a closer look

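Clcn5 differed between the lines by a log2 odds change of -1.06 with Dox in XistΔm6A/11C against XistDelA, and Wdr45 by -1.09, both past the threshold of the test of the difference. The fit behind this test gave a share of false calls above the threshold on simulated data. A further 6 informative genes, AU022751, Prickle3, Gpkow, Rpgr, Med14 and Nkap, had a lower Xi share with Dox in both XistΔm6A/11C pairs and a higher one in all 3 XistDelA clones, a difference that was not tested for them as a group and that no single one of them passed. AU022751, Prickle3 and Gpkow are outside the rule for naming genes and were chosen after their values were seen. Prickle3 had the widest gap, with -0.0873 and -0.358 in XistΔm6A/11C and 0.0887, 0.0373 and 0.177 in C1, 2C2 and C11, and -0.220 in WT, but it rested on a mean of 31 allelic counts per library, so that counting error is large; AU022751 had a mean of 34.1. Over all informative genes of the genome, 2.94% had that pattern of signs, against 6.32% of the informative genes below 40 Mb and 2.74% of 219 other informative X-linked genes.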

How the results depend on the processing

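With the replicate block, 38 genes below 40 Mb fell in Xi share in XistΔm6A/11C in place of 11 (38.8%, beside 1.46% of all genes), and 22 passed the test of the difference in place of 2 (22.4%, beside 1.00%). With the same block, total counts passed for 10 lower genes in XistΔm6A/11C, 27 lower and 12 higher genes in XistDelA and 5 lower genes in the difference, in place of 0, beside 1.34% lower, 14.5% lower and 14.5% higher, and 0.565% lower of all genes. The XistΔm6A/11C replicates share only a number, and the deviations of same-numbered libraries had a correlation of 0.771. The block changed no other count of calls below 40 Mb. DESeq2 gave 2 lower (1.09%) and 1 higher gene (0.546%) in XistDelA, beside 1.04% and 0.782% of all genes. Leaving out each pair in turn gave 0 to 11 genes in XistΔm6A/11C and 0 to 0 for the difference; a line left with 1 pair is assumed to vary like the others. Of the 11 genes, 0 passed without replicate 1 of XistΔm6A/11C, 2 without replicate 2, 6 without 2C2, 5 without C11 and 11 without C1, each with a negative log2 odds change. All 11 also passed with an average of at least 50 allelic counts, with the filter on the share without Dox and with the lines fitted separately. In WT the median share change was -0.141 when taken from summed counts, and the median total change was -0.41 with an average of at least 10 counts. The cause was not tested. The median changes of each line, the log2 odds changes of the 11 genes and the differences for Clcn5 and Wdr45 kept their direction under every alternative run for them. For 2C2 alone the median share change was -0.000452 while the summed share went from 0.528 to 0.532. The low share of counts assigned to a genome limits the genes from Wdr44 on, and WT has no replicate.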
